A study of Mus musculus with 8 samples.

Results

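Megakaryocyte and platelet genes are described here through 9 genes of the 56748 listed in the table. They are 9 rows found by symbol: Pf4, Ppbp, Itga2b, Itgb3, Gp1ba, Gp1bb, Gp9, Treml1 and Nfe2. The list was selected with FPKM values of these 8 libraries known, so the levels and differences of the 9 genes are given as a description, without a p-value for any of them. RNA was sequenced from 32D cells, a mouse myeloid line that depends on interleukin 3 and was labelled as myeloblast-like. All cells carried a transgene of murine Jak2, either wild type (Jak2WT) or with the V617F change (Jak2V617F). Slc2a1 and Slc2a3, which encode the glucose transporters GLUT1 and GLUT3, were intact (GLUT1/3 WT) or both disrupted with CRISPR-Cas9 (GLUT1/3 dKO). Each of the 4 groups had 2 clones grown from single cells, numbered 1 and 3, and every clone was kept for 24 h in 5 mM glucose, 1 mM glutamine and 2 ng/ml interleukin 3. The study asked how cells with and without the mutation respond when glucose can no longer enter through these transporters, and no stimulus of megakaryocyte development was part of the labelled treatment.

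Megakaryocytes are the bone marrow cells that shed platelets, and they arise from progenitors close to those of red cells, under cytokines that signal through JAK2. Integrin alpha IIb (Itga2b) and integrin beta 3 (Itgb3) pair into the platelet receptor for fibrinogen, while Gp1ba, Gp1bb and Gp9 encode subunits of the receptor for von Willebrand factor. Pf4 and Ppbp encode chemokines stored in alpha granules, Treml1 a receptor of the same granules, and Nfe2 the large subunit of NF-E2, a basic leucine zipper factor needed for platelet release. The JAK2 V617F mutation is found in myeloproliferative neoplasms, in which platelets are often raised.

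The promoters of the 4 genes below are shown because 2 of them belong to the chemokine genes, which were seen mainly in one group, and 2 to subunits of one receptor that followed the groups in different ways. Each window runs from 250 bases before to 50 bases after the gene's start in RefSeq, which can differ from the start in the authors' table. The sequences are from RefSeq, and each matched GRCm39 at 1 place. Capitals mark GATAA or its reverse complement TTATC, the core bound by GATA factors, and TGANTCA, a core of basic leucine zipper pairs.
Pf4: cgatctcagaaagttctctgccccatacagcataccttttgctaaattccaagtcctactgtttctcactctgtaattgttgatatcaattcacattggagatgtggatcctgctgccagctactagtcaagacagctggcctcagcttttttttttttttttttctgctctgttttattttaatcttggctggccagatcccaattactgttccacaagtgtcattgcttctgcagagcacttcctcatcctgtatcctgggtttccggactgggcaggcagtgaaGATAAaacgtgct
Ppbp: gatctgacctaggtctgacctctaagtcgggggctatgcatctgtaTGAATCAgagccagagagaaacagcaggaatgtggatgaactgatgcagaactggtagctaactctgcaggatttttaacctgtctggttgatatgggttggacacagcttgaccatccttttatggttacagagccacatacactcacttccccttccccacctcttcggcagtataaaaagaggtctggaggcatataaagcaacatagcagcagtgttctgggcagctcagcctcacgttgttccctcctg
Gp9: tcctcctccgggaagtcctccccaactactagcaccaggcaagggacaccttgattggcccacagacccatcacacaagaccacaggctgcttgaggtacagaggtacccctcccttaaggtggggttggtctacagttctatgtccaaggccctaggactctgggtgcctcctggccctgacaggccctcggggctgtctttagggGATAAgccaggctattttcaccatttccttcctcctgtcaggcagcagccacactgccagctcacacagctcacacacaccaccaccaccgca
Gp1ba: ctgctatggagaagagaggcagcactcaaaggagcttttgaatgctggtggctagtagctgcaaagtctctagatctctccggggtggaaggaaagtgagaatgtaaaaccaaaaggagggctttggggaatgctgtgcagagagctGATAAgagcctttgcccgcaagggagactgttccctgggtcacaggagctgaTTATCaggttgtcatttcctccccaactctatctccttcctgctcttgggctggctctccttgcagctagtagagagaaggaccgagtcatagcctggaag
The Pf4 window lies at chr5:90920044-90920343 and the Ppbp window at chr5:90916127-90916426, both on the forward strand. The Gp9 window lies at chr6:87754802-87755101 and the Gp1ba window at chr11:70529698-70529997, also on the forward strand. Promoters were found for 7 of the 9 genes, and Itgb3 and Nfe2 had no entry. Searched on both strands, GATAA occurred in the windows of Pf4, Gp9 and Gp1ba, with 2 matches in Gp1ba, and it occurs in 25.4% of 32851 promoters of the same length. TGANTCA occurred in the windows of Ppbp and Gp1bb, against 7.81% of promoters. GGAAG, the core of ETS factors, occurred in all 7 windows, with 4 matches in Itga2b, and in 71.4% of promoters. The marked motifs did not overlap each other, and a match is a description of the sequence, not evidence of binding.

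The targeted genes were first read in every library. Slc2a1 was at 44.7 and 48.4 FPKM in the GLUT1/3 WT clones of Jak2WT and at 9.47 and 9.17 FPKM in the Jak2WT dKO clones. In Jak2V617F it was at 64.0 and 53.0 FPKM in the GLUT1/3 WT clones and at 17.3 and 12.7 FPKM in the dKO clones. Slc2a3 was likewise lower in every dKO clone than in both GLUT1/3 WT clones of its background. Jak2, which the cells also carried as a transgene, was at 218 to 258 FPKM in the Jak2WT clones and at 139 to 165 FPKM in the Jak2V617F clones. FPKM is the number of fragments on a gene per kilobase of its length, scaled to the size of the library, so levels of different genes can be compared per length. Reads on genes, recovered from the FPKM steps, ranged from 16846011 in Jak2WT GLUT1/3 WT clone 3 to 48884329 in Jak2WT dKO clone 3. Of the myeloid progenitor markers, Spi1 was between 11.1 and 19.8 FPKM and Csf2rb, the shared beta chain of the interleukin 3 receptor, between 48.9 and 190 FPKM, while Kit was listed at 0 in all 8 libraries and Cd34 was at 0.00789 FPKM or less. Each group was 2 clones, and the tests used an estimate of the spread shared by all 4 groups and drawn towards that of all genes tested. The p-values thus cover the spread between clones and nothing beyond it. An exact permutation test of 2 clones against 2 cannot give a p below 0.333. In bulk RNA, fewer cells of a type and less RNA per cell cannot be told apart, and this holds for every level below.

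**Figure D1:**
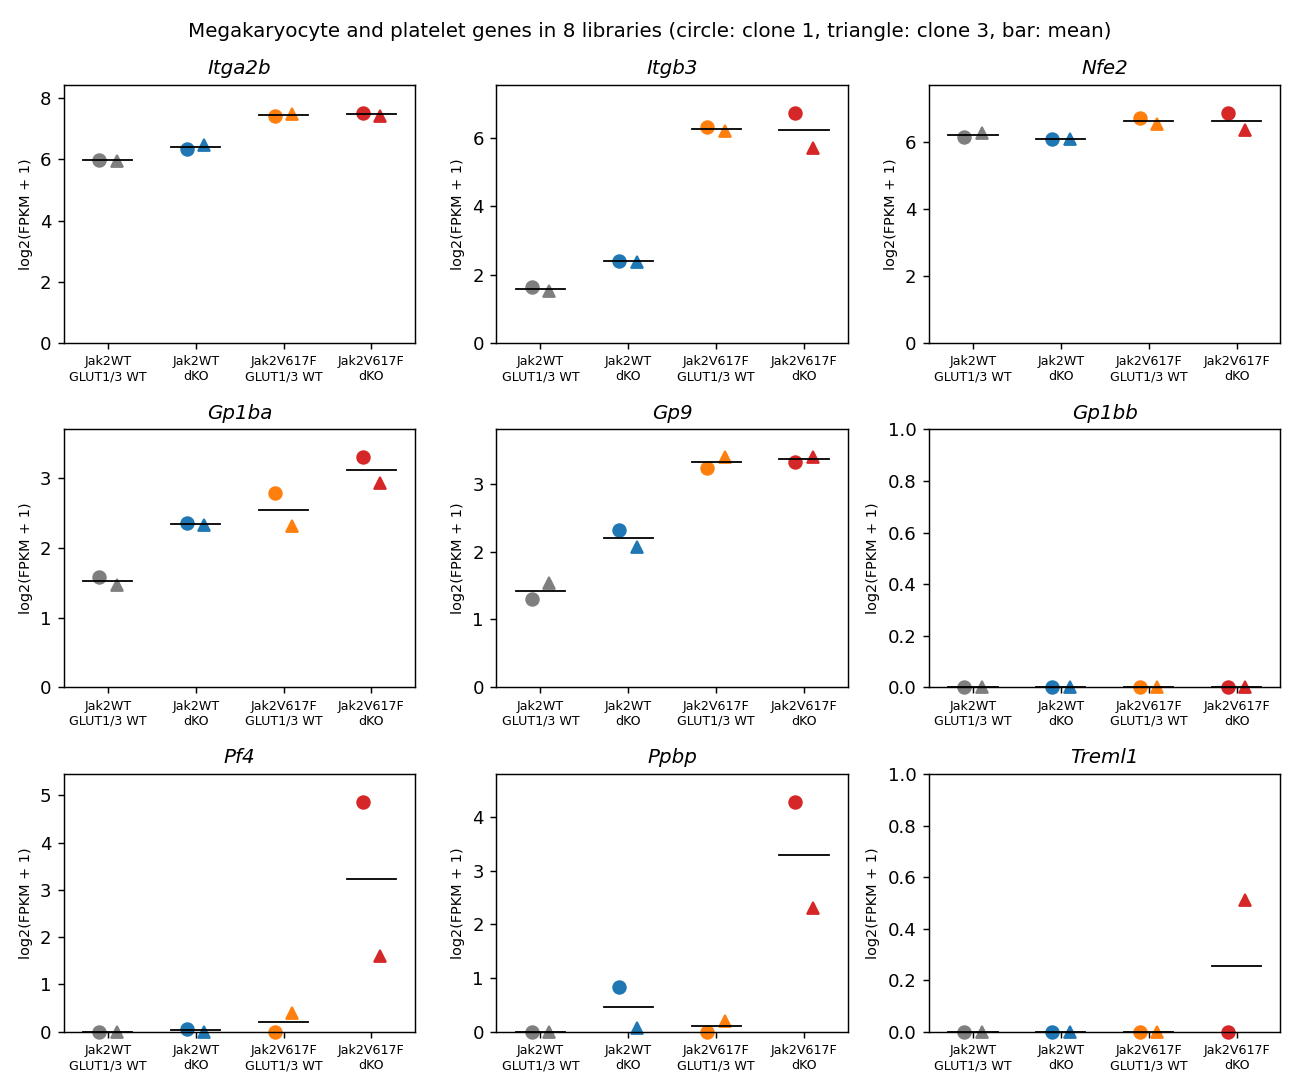
Level of each of the 9 genes, as log2(FPKM + 1) on the vertical axis of its own panel, in the 4 groups on the horizontal axis; circles are clone 1, triangles clone 3 and bars the mean of the 2 clones. Itga2b and Itgb3 were higher in all 4 Jak2V617F clones than in all 4 Jak2WT clones, Pf4 and Ppbp were highest in the 2 Jak2V617F dKO clones, and Gp1bb was listed at 0 throughout.

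Both fibrinogen receptor genes were higher with Jak2V617F, and Itga2b was the most abundant surface receptor gene of the 9 in every library. Itga2b (ENSMUSG00000034664, chromosome 11 from 102344123 to 102360948, reverse strand) was at 62.2 and 61.3 FPKM in the GLUT1/3 WT clones of Jak2WT and at 80.4 and 87.0 FPKM in the Jak2WT dKO clones. It was at 169 and 179 FPKM in the Jak2V617F GLUT1/3 WT clones and at 184 and 172 FPKM in the Jak2V617F dKO clones. The order was thus Jak2WT GLUT1/3 WT, Jak2WT dKO and then both Jak2V617F groups, whose clones overlapped. The group means were 61.8 ± 0.644, 83.7 ± 4.65, 174 ± 6.98 and 178 ± 9.03 FPKM (SD, n = 2 each). Among GLUT1/3 WT clones the mean was 2.82-fold higher with Jak2V617F, a difference of 1.48 in log2(FPKM + 1) (SE 0.082). The dKO difference was 0.43 (SE 0.082) in Jak2WT and 0.032 (SE 0.082) in Jak2V617F.

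Itgb3 was far below Itga2b in Jak2WT and nearer to it in Jak2V617F. Itgb3 (ENSMUSG00000020689, chromosome 11 from 104498826 to 104561302, forward strand) was at 2.08 and 1.89 FPKM in the GLUT1/3 WT clones of Jak2WT and at 4.29 and 4.17 FPKM in the Jak2WT dKO clones. It was at 78.9 and 73.1 FPKM in the Jak2V617F GLUT1/3 WT clones, and at 107 and 51.2 FPKM in the Jak2V617F dKO clones. The Jak2V617F dKO clones lay on either side of both Jak2V617F GLUT1/3 WT clones, so those groups overlapped, and clone 1 was 2.08 times clone 3. The means were 1.98 ± 0.135, 4.23 ± 0.0837, 76.0 ± 4.08 and 78.9 ± 39.1 FPKM (SD, n = 2 each). Jak2V617F was 38.4-fold higher than Jak2WT among the GLUT1/3 WT clones, a difference of 4.69 in log2(FPKM + 1) (SE 0.28). Among the dKO clones it was 18.6-fold higher, with a difference of 3.84 (SE 0.28).

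The balance of the fibrinogen receptor pair differed between backgrounds. The ratio of Itga2b to Itgb3, per length, was 30.0 and 32.5 in the GLUT1/3 WT clones of Jak2WT and 18.7 and 20.9 in the Jak2WT dKO clones. It was 2.14 and 2.45 in the Jak2V617F GLUT1/3 WT clones and 1.73 and 3.35 in the Jak2V617F dKO clones. All 4 Jak2WT clones had ratios above those of all 4 Jak2V617F clones.

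Of the subunits of the von Willebrand factor receptor, Gp9 and Gp1ba were present at low levels and followed the groups in somewhat different ways. Gp9 (ENSMUSG00000030054, chromosome 6 from 87755054 to 87756750, forward strand) was at 1.46 and 1.90 FPKM in the GLUT1/3 WT clones of Jak2WT and at 4.01 and 3.18 FPKM in the Jak2WT dKO clones. It was at 8.43 and 9.52 FPKM in the Jak2V617F GLUT1/3 WT clones and at 9.04 and 9.50 FPKM in the Jak2V617F dKO clones, which overlapped. The values rest on 29 reads in the lowest library and 277 in the highest. Relative to GLUT1/3 WT, the dKO mean was 2.14-fold higher in Jak2WT (difference 0.78 in log2(FPKM + 1), SE 0.13) and 1.03-fold in Jak2V617F (0.044, SE 0.13). The difference between these 2 differences was -0.73 (SE 0.18).

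Gp1ba encodes the subunit that binds von Willebrand factor. Gp1ba (ENSMUSG00000050675, chromosome 11 from 70529948 to 70532862, forward strand) was at 2.01 and 1.76 FPKM in the GLUT1/3 WT clones of Jak2WT and at 4.12 and 4.02 FPKM in the Jak2WT dKO clones. It was at 5.88 and 3.99 FPKM in the Jak2V617F GLUT1/3 WT clones and at 8.87 and 6.65 FPKM in the Jak2V617F dKO clones. Jak2V617F GLUT1/3 WT clone 3 lay below both Jak2WT dKO clones, so these neighbours in the order overlapped. Gp1ba was higher in dKO than in GLUT1/3 WT in both backgrounds, 2.16-fold in Jak2WT (0.82 in log2(FPKM + 1), SE 0.18) and 1.57-fold in Jak2V617F (0.57, SE 0.18). The ratio of Gp1ba to Gp9 was between 0.928 and 1.37 in the Jak2WT clones and between 0.419 and 0.981 in the Jak2V617F clones, ranges that overlapped.

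The third subunit of that receptor and the granule receptor were at or near 0. Gp1bb (ENSMUSG00000050761, chromosome 16 from 18439067 to 18441153, reverse strand) was listed at 0 in all 8 libraries, where 3 reads would come to between 0.0292 and 0.0829 FPKM. All but 149 of its bases overlap Septin5 or Gm49601 on the same strand, both also listed at 0, and how reads shared by overlapping genes were counted is not given in the sources used here. Treml1 (ENSMUSG00000023993, chromosome 17 from 48666944 to 48674204, forward strand) had reads in Jak2V617F dKO clone 3 alone, 15 reads at 0.424 FPKM (95% Poisson interval 0.237 to 0.700). In the other 7 libraries it was listed at 0, and 3 reads would come to between 0.0434 and 0.123 FPKM. Such intervals and limits cover counting error only.

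The chemokine genes were seen mainly in the Jak2V617F dKO clones, and those clones differed widely. Pf4 (ENSMUSG00000029373, chromosome 5 from 90920294 to 90921242, forward strand) was listed at 0 in both GLUT1/3 WT clones of Jak2WT, at 0.0486 and 0 FPKM in the Jak2WT dKO clones and at 0 and 0.326 FPKM in the Jak2V617F GLUT1/3 WT clones. It was at 28.2 FPKM in Jak2V617F dKO clone 1 (707 reads) and at 2.03 FPKM in clone 3 (37 reads). The highest of the other 6 libraries had 7 reads, so both Jak2V617F dKO clones were above all others, and clone 1 was 13.9 times clone 3. Ppbp (ENSMUSG00000029372, chromosome 5 from 90916377 to 90917922, forward strand) was listed at 0 in both GLUT1/3 WT clones of Jak2WT, at 0.776 and 0.0562 FPKM in the Jak2WT dKO clones and at 0 and 0.155 FPKM in the Jak2V617F GLUT1/3 WT clones. It was at 18.5 and 3.92 FPKM in Jak2V617F dKO clones 1 and 3 (695 and 107 reads), a ratio between clones of 4.71. Jak2WT dKO clone 1, with 24 reads, had the next highest level of Ppbp.

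Both chemokine genes thus had the same order of clones in Jak2V617F dKO, as had Itga2b, Itgb3, Gp1ba and Nfe2 but not Gp9 or Treml1. The dKO difference in Jak2V617F, in log2(FPKM + 1), was 3.03 for Pf4 (SE 0.87) and 3.19 for Ppbp (SE 0.57). These sizes depend on the pseudocount, since the GLUT1/3 WT clones had few or no reads, and with 0.1 in place of 1 they were 5.24 and 5.76. Without clone 1 of Jak2V617F dKO the differences were 1.40 and 2.19, and without clone 3 they were 4.66 and 4.18. The ratio of Pf4 to Ppbp was 1.53 in clone 1 and 0.519 in clone 3. Haemoglobin genes had the same order of these clones, with Hbb-bs at 2209 and 1437 FPKM, Hba-a1 at 2007 and 993 FPKM, Hbb-bt at 376 and 89.0 FPKM and Hbb-y at 110 and 26.6 FPKM in clones 1 and 3. The more abundant pair thus differed less between the clones than the other two, although reads of Hbb-bt and its near copy Hbb-bs may not be told apart. Whether red cell genes had a part in the chemokine levels was not tested.

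Nfe2, the transcription factor of the 9, was expressed in every library and varied least of the 7 genes that passed the filter. Nfe2 (ENSMUSG00000058794, chromosome 15 from 103156639 to 103166830, reverse strand) was at 70.0 and 75.0 FPKM in the GLUT1/3 WT clones of Jak2WT and at 67.0 and 66.4 FPKM in the Jak2WT dKO clones. It was at 105 and 90.6 FPKM in the Jak2V617F GLUT1/3 WT clones and at 116 and 81.0 FPKM in the Jak2V617F dKO clones. All Jak2V617F clones were above all Jak2WT clones, and the Jak2V617F groups overlapped. The difference between backgrounds was 0.42 in log2(FPKM + 1) among GLUT1/3 WT clones and 0.53 among dKO clones (SE 0.16 each), and the dKO differences were -0.12 and -0.0063.

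**Figure D2:**
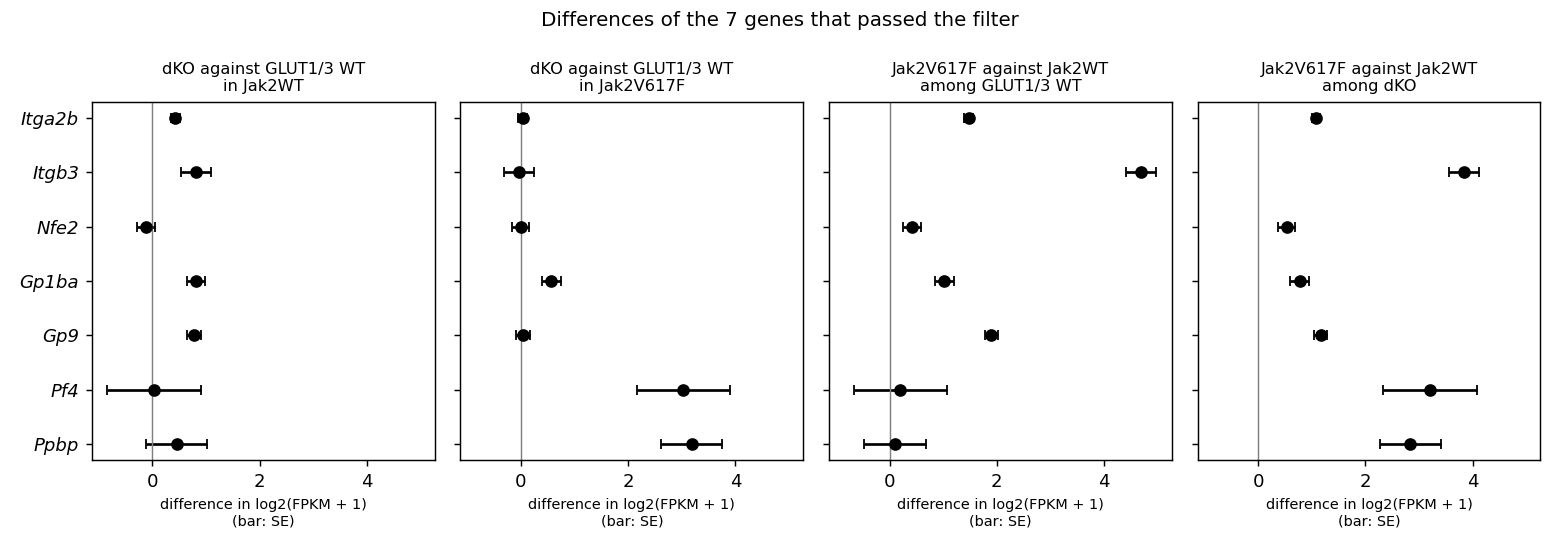
Differences in log2(FPKM + 1) on the horizontal axis, with bars of 1 SE, for the 7 genes that passed the filter, in the 4 comparisons as panels. Between backgrounds among GLUT1/3 WT clones Itgb3 differed by 4.69 and Itga2b by 1.48, while in Jak2V617F dKO against GLUT1/3 WT the differences over 1 were those of Pf4 and Ppbp.

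Of the 9 genes, 7 passed the filter of at least 1 FPKM in at least 2 libraries, and Pf4 and Ppbp passed it through the Jak2V617F dKO clones alone. Gp1bb and Treml1 did not pass. In dKO against GLUT1/3 WT in Jak2WT, 3 of the 7 were called higher (Itga2b, Gp9 and Gp1ba; adjusted p under 0.05) where 7.62% of all 11818 genes tested were, and 0 lower where 6.06% were. The dKO clones lay wholly above for 5 of the 7, where 34.1% of genes did, and wholly below for 1 (Nfe2), where 3787 of 11818 genes did. The 5 include Ppbp, which passed the filter only through Jak2V617F dKO and lends no support to the count. The 3 calls became 0 without either Jak2WT GLUT1/3 WT clone or without Jak2WT dKO clone 1, and 1 without Jak2WT dKO clone 3. In dKO against GLUT1/3 WT in Jak2V617F, 3 were called higher (Gp1ba, Pf4 and Ppbp; background 13.7%) and 0 lower (16.2%), and the clones of those 3 lay wholly above (29.9%). Pf4 and Ppbp lend no support to this count, since they passed the filter only where they were high, which leaves Gp1ba. Gp1ba itself was not called with a pseudocount of 0.1, with no filter or with only the groups compared, while Ppbp was called in each. Which of the 3 were called also changed with the library left out. With voom on the recovered reads Gp1ba alone was called, while the log2 differences of Pf4 and Ppbp were 6.41 and 7.28 there, against 3.03 and 3.19 in log2(FPKM + 1). The scales differ in what is added before the logarithm, on which these values depend since both genes had no reads in Jak2V617F GLUT1/3 WT clone 1. Since the genes were selected on these values, nothing is read from the counts.

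In Jak2V617F against Jak2WT among GLUT1/3 WT clones, 4 of the 7 were called higher (Itga2b, Itgb3, Gp9 and Gp1ba; background 15.3%) and 0 lower (14.9%), and the clones of 5 lay wholly above (35.8%). This comparison shares the Jak2WT GLUT1/3 WT libraries with the dKO comparison in Jak2WT, so their values are not independent. Among dKO clones, all but Nfe2 were called higher (6 genes; background 7.12%), 0 lower (9.96%), and the clones of all 7 lay wholly above (27.5%). Both counts again include Pf4 and Ppbp, without which 4 genes were called (Itga2b, Itgb3, Gp9 and Gp1ba). The 6 calls became 3 (Itga2b, Itgb3 and Gp9) without either Jak2WT dKO clone. For the difference between the dKO effects of the backgrounds, Gp9 alone was called, as lower in Jak2V617F, where 5.91% of genes were called lower and 4.72% higher. That call was lost under several alternatives, among them with no filter, with voom on the recovered reads and in each fit that left out a library.

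**Figure D3:**
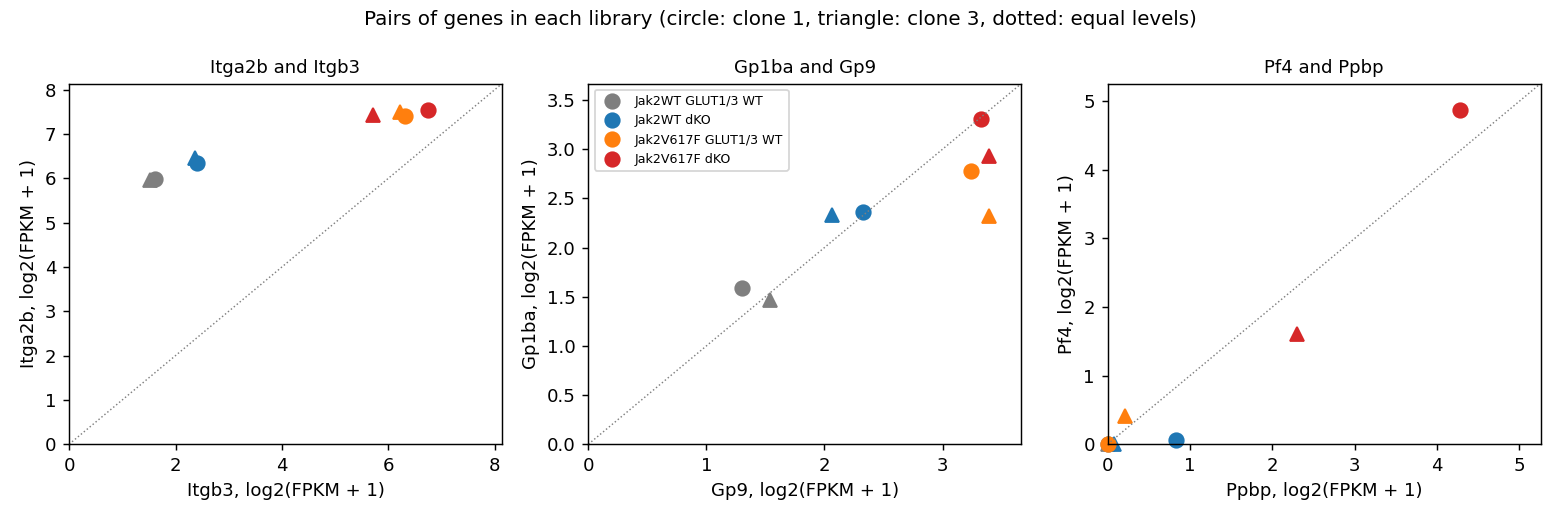
Levels of 3 pairs of genes in each library as log2(FPKM + 1) on both axes, with circles for clone 1, triangles for clone 3, one colour for each group and a dotted line of equal levels; libraries without reads lie on top of each other at the origin of the last panel. Itga2b stayed above Itgb3 in all 8 libraries, nearest to it in the Jak2V617F clones, while Pf4 was above Ppbp in Jak2V617F dKO clone 1 and below it in clone 3.

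Across the 8 libraries the genes fell along more than one pattern. Pearson's r of log2(FPKM + 1) was 0.989 between Itga2b and Itgb3, 0.981 between Itga2b and Gp9, and 0.967 between Pf4 and Ppbp. It was between 0.507 and 0.750 for a chemokine gene with any of the other 5 tested. These values describe 8 libraries in 4 groups that share their clones and depth. Among 2717 genes whose levels spanned at least 1 on this scale, those most like Itgb3 were Syt16 (0.998), Gm13528 (0.994) and Bcl2l11 (0.994), and those most like Itga2b were Zeb2 (0.996), C430049B03Rik (0.993) and Tmsb4x (0.990). For Pf4 they were Gm46515 (0.979), Hoatz (0.970) and Gm37035 (0.968), and for Ppbp Ecm1 (0.989), Hoatz (0.985) and Hba-x (0.979), the last an embryonic haemoglobin chain. For Gp9 they were Ccng1 (0.985), Tmsb4x (0.983) and Itga2b, for Gp1ba Cela1 (0.997), H2-T23 (0.984) and Rap2b (0.981), and for Nfe2 Cdkn2b (0.974), Ksr1 (0.971) and Capn2 (0.969).

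Other genes of the lineage were read from 112 genes in 8 roles, of which 85 passed the filter and 12 were listed at 0 in all libraries. Of the 85, 75 reached 1 FPKM in a clone of each of the 4 groups, 7 passed through the Jak2V617F clones alone and 2 through the Jak2WT clones alone. Several defining platelet genes were near 0. Vwf, which encodes von Willebrand factor, was at 0.00895 FPKM or less, Tubb1, the platelet tubulin, at 0.327 FPKM or less, and Gp6, a collagen receptor, at 0.0997 FPKM or less. The receptor gene P2ry12 was at 0.0132 FPKM or less, and Clec1b and F13a1 were listed at 0 in all 8 libraries.

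**Figure D4:**
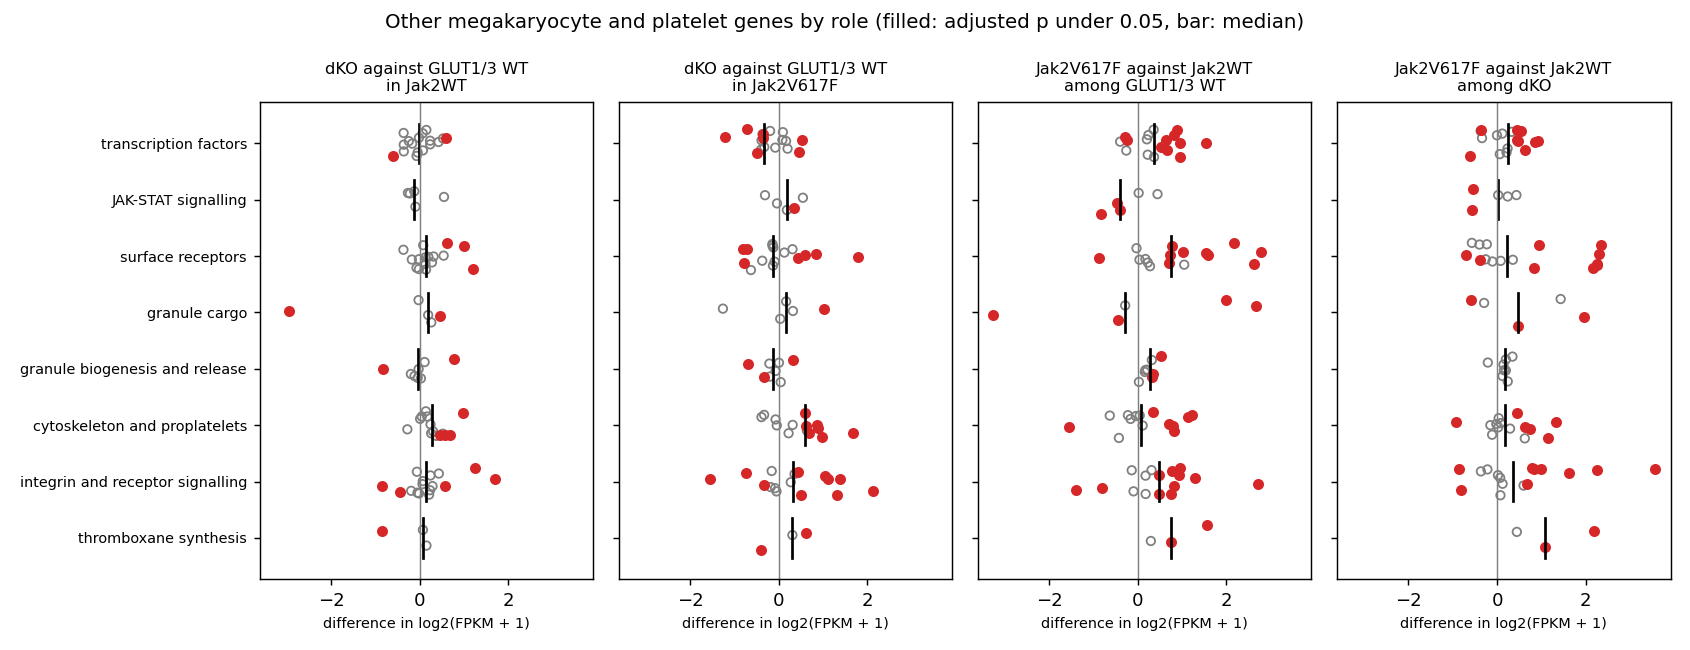
Differences in log2(FPKM + 1) on the horizontal axis for 84 other megakaryocyte and platelet genes in 8 roles on the vertical axis, in the 4 comparisons as panels; filled points passed an adjusted p of 0.05 and bars are medians. In Jak2V617F against Jak2WT among GLUT1/3 WT clones 39 points are filled on the right and 11 on the left, and 1 gene of the 85 is not drawn.

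The counts of the wider list include the 7 and 2 genes that passed the filter through one background alone, and these lend no support to a count. The genes called lower were near the share over all genes in each of the 4 comparisons. In Jak2V617F against Jak2WT among GLUT1/3 WT clones, 40 of the 85 genes were called higher and 11 lower (of all genes tested, 15.3% and 14.9%), with a median of 0.33 against 0.0076 over all 11818 genes. The surface receptors had 9 of 16 higher and 1 lower, the transcription factors 8 of 17 and 2, integrin and receptor signalling 9 of 16 and 2, and the cytoskeleton 6 of 14 and 1. Granule biogenesis and release had 3 of 8 and 0 and thromboxane synthesis 2 of 3 and 0. JAK-STAT signalling had 1 of 6 higher, 3 lower (Jak2, Stat5a and Stat5b) and a median of -0.20, where Jak2 is also the transgene. Granule cargo had 2 of 5 higher, 2 lower and a median of -0.29. Itga6, the laminin receptor chain, rose from a mean of 2.01 to 19.5 FPKM (2.77 in log2(FPKM + 1), SE 0.30, adjusted p = 0.00119). Parvb, a partner of integrin-linked kinase, rose from 0.474 to 8.70 FPKM (2.70, SE 0.21, adjusted p = 0.000438). F5, coagulation factor V, had means of 0.0551 and 5.76 FPKM, and the junctional adhesion gene F11r 0.0156 and 5.27 FPKM. The lower mean of F11r rests on 1 read in each of its 2 libraries. F5 and F11r are among the 7 genes that passed the filter through the Jak2V617F clones alone, so their differences are given as values without a test.

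Thbs1, which encodes thrombospondin 1 of the alpha granules, was at 14.1 and 5.13 FPKM in the GLUT1/3 WT clones of Jak2WT and listed at 0 in both Jak2V617F GLUT1/3 WT clones. Tuba4a, an alpha tubulin of platelets, fell from a mean of 59.5 to 19.7 FPKM (-1.56, SE 0.14, adjusted p = 0.000652), and Rasgrp2, the activator of Rap1 upstream of integrins, from 4.43 to 1.05 FPKM (-1.41, SE 0.11, adjusted p = 0.000386). The tetraspanin gene Cd151 fell from 7.02 to 3.38 FPKM (adjusted p = 0.00924). The count of genes rising became 26 without Jak2WT GLUT1/3 WT clone 1, and that of genes falling became 7 without this clone, 4 without Jak2WT GLUT1/3 WT clone 3 and 5 without Jak2V617F GLUT1/3 WT clone 3.

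Among dKO clones, 31 of the 85 genes were higher with Jak2V617F and 10 lower (of all genes tested, 7.12% and 9.96%), with a median of 0.24 against -0.023 over all genes. The counts by role were 7 higher and 2 lower for surface receptors, transcription factors and integrin signalling alike, 5 and 1 for the cytoskeleton, 2 and 1 for granule cargo, 2 and 0 for thromboxane synthesis, and 0 and 0 for granule biogenesis and release. JAK-STAT signalling had 1 higher and 2 lower, which were Stat5b and Jak2, the transgene. Parvb rose from a mean of 2.51 to 41.8 FPKM (3.57, SE 0.21, adjusted p = 0.000199) and P2ry1, an ADP receptor, from 8.56 to 47.4 FPKM (2.35, SE 0.13, adjusted p = 0.000179). Gp5, which joins the von Willebrand factor receptor, was at 0.621 and 0.850 FPKM in the Jak2WT dKO clones and at 11.7 and 4.71 FPKM in the Jak2V617F dKO clones. Rgs10 had 0 and 1 reads in the Jak2WT dKO clones and 169 and 220 reads in the Jak2V617F dKO clones. Gp5 and Rgs10 also passed the filter through the Jak2V617F clones alone, and no test is given for them here. Tpm4, a tropomyosin, fell from 24.5 to 12.5 FPKM (-0.93, SE 0.15, adjusted p = 0.00772), and Orai1, the calcium channel, from 9.90 to 5.20 FPKM (-0.82, SE 0.17, adjusted p = 0.0170). The 31 became 20 without Jak2WT dKO clone 1, and the 10 became 2 without that clone and 6 without Jak2WT dKO clone 3 or Jak2V617F dKO clone 1.

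In dKO against GLUT1/3 WT in Jak2V617F, 25 of the 85 genes were called higher and 14 lower (of all genes tested, 13.7% and 16.2%), with a median of 0.035 against -0.019 over all genes. The cytoskeleton had 7 of 14 rising and 0 falling, integrin and receptor signalling 7 of 16 rising and 3 falling, and the transcription factors 2 of 17 rising and 5 falling. The surface receptors had 4 rising and 3 falling, granule biogenesis and release 1 and 2, JAK-STAT signalling 2 and 0, granule cargo 1 and 0, and thromboxane synthesis 1 and 1. Parvb rose from a mean of 8.70 to 41.8 FPKM (2.13, SE 0.21, adjusted p = 0.000861), Tuba4a from 19.7 to 64.3 FPKM (1.67, SE 0.14, adjusted p = 0.000534) and Plek, which encodes pleckstrin, from 199.7 to 523 FPKM (1.38, SE 0.24, adjusted p = 0.00627). Gp5 was at 1.79 and 1.16 FPKM without and at 11.7 and 4.71 FPKM with dKO (1.79, SE 0.34, adjusted p = 0.00832). Rgs18, a regulator of G protein signalling in platelets, fell from 174.5 to 59.5 FPKM (-1.54, SE 0.12, adjusted p = 0.000401). The factor Etv6 fell from 49.4 to 20.6 FPKM (adjusted p = 0.0135), Itgb1, integrin beta 1, from 129 to 72.9 FPKM (adjusted p = 0.00147) and Plcg2, a phospholipase, from 51.5 to 30.2 FPKM (adjusted p = 0.00285). The 25 became 16 without Jak2V617F GLUT1/3 WT clone 3, and the 14 became 7 without Jak2V617F GLUT1/3 WT clone 1 and 22 without Jak2V617F dKO clone 1.

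In dKO against GLUT1/3 WT in Jak2WT, 13 of the 85 genes were called higher and 6 lower (of all genes tested, 7.62% and 6.06%), with a median of 0.083 against 0.0082 over all genes. The cytoskeleton had 4 of 14 rising and 0 falling, the surface receptors 3 of 16 and 0, and integrin and receptor signalling 3 of 16 and 2. The transcription factors, granule cargo, and granule biogenesis and release had 1 rising and 1 falling each, thromboxane synthesis 0 and 1, and JAK-STAT signalling 0 and 0. Plek rose from a mean of 80.1 to 268 FPKM (1.70, SE 0.24, adjusted p = 0.00841) and Flna, filamin A, from 54.6 to 109 FPKM (0.98, SE 0.12, adjusted p = 0.00661). F2r, a thrombin receptor, rose from 379 to 761 FPKM (1.00, SE 0.13, adjusted p = 0.00697) and F2rl2, its relative, from 21.4 to 50.8 FPKM (1.20, SE 0.16, adjusted p = 0.00689). Thbs1 was at 14.1 and 5.13 FPKM without and at 0.352 and 0.164 FPKM with dKO, given without a test since it passed the filter through the Jak2WT GLUT1/3 WT clones alone. Rgs18 fell from 125 to 69.1 FPKM (adjusted p = 0.00780) and Ptgs1, the platelet cyclooxygenase, from 37.6 to 20.5 FPKM (adjusted p = 0.00842). Runx1 and Rab27b fell as well, from 10.3 to 6.49 and from 8.68 to 4.49 FPKM (adjusted p = 0.00957 and 0.00576). The 13 became 1 and 0 without Jak2WT GLUT1/3 WT clones 1 and 3, and 3 and 6 without Jak2WT dKO clones 1 and 3. The 6 became 1 and 2, and 3 and 3, without the same clones.

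The dKO effect differed between backgrounds, by the test of the difference itself, for 14 of the 85 genes, 6 of them higher and 8 lower in Jak2V617F (of all genes tested, 4.72% and 5.91%). The surface receptors had 3 lower, F2r, F2rl2 and Itgb1. F2r was at 389 and 368 FPKM in the GLUT1/3 WT clones of Jak2WT and at 846 and 677 FPKM in the Jak2WT dKO clones, and at 814 and 732 FPKM in the Jak2V617F GLUT1/3 WT clones and at 499 and 436 FPKM in the Jak2V617F dKO clones. It was thus higher with dKO in Jak2WT and lower with dKO in Jak2V617F, without overlap of the clones in either background (difference of the differences -1.72, SE 0.18, adjusted p = 0.00867). Ptgs1 went the other way, at 34.8 and 40.4 against 18.4 and 22.6 FPKM in Jak2WT and at 67.0 and 59.8 against 97.8 and 96.9 FPKM in Jak2V617F (1.46, SE 0.17, adjusted p = 0.00898). The 6 became 3, 1, 2 and 3 without Jak2WT GLUT1/3 WT clones 1 and 3 and Jak2WT dKO clones 1 and 3 in turn, and the 8 became 2, 0, 2 and 5. The 8 also became 4 without Jak2V617F GLUT1/3 WT clone 1 and 5 without Jak2V617F dKO clone 3.

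Summed markers of other blood lineages differed between the groups, and single markers did not always follow the sum. The summed FPKM of 12 erythroid markers, 8 of them at 1 FPKM or more in a library, was 69.2 to 93.5 in Jak2WT GLUT1/3 WT, 254 to 294 in Jak2WT dKO, 638 to 988 in Jak2V617F GLUT1/3 WT and 2672 to 4837 in Jak2V617F dKO. Haemoglobin genes made up most of it in every library. Rhag, which encodes the Rh-associated glycoprotein, had means of 8.24, 31.0, 133 and 93.3 FPKM in the same order of groups, and was thus lower in both Jak2V617F dKO clones than in both Jak2V617F GLUT1/3 WT clones. The 9 mast cell and basophil markers, of which Cpa3 alone reached 1 FPKM and 3 were listed at 0 in all libraries, summed to 51.4 to 102 in the Jak2WT clones and to 0.338 to 2.41 in the Jak2V617F clones. The 12 granulocyte markers, 6 of them at 1 FPKM or more, summed to 104 to 262 in the Jak2WT clones and to 10.7 to 31.5 in the Jak2V617F clones. Of these 6, Prtn3 did not follow the sum, with means of 8.66, 4.46, 9.49 and 7.57 FPKM in the order of groups above. The other 5 were lower in Jak2V617F than in Jak2WT, among GLUT1/3 WT and among dKO clones. The 7 macrophage markers, 3 of them at 1 FPKM or more, summed to 56.7 to 78.3 outside Jak2V617F dKO and to 28.6 to 30.9 within it, with Csf1r at 0.0523 FPKM or less. From Jak2V617F GLUT1/3 WT to Jak2V617F dKO the mean of Adgre1 went from 55.4 to 18.3 FPKM, that of Cd68 from 4.66 to 5.83 FPKM and that of Lyz2 from 4.29 to 5.54 FPKM. The 7 myeloid progenitor markers summed to 138 to 147 in Jak2V617F dKO and to 290 to 476 in the other groups. Between the Jak2V617F groups, with dKO named last, Csf2rb had means of 129 and 52.1 FPKM and Csf2rb2 of 159 and 59.4 FPKM. Likewise Ptprc had means of 32.1 and 9.53 FPKM, Spi1 of 19.5 and 12.8 FPKM and Il3ra of 8.82 and 8.44 FPKM. The 5 lymphoid markers summed to at most 0.805. The part of these lineages in the levels of the platelet genes was not tested.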

How the data were processed

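The RNA of 8 clones of 32D cells was sequenced as poly-A libraries in read pairs. The authors cleaned reads with fastp 1.0.1, aligned them to mm39 with HISAT2 2.2.1, counted them per gene with featureCounts 2.0.6 and deposited FPKM values. The annotation version, strand setting and library total are not given in the sources used here. All library columns were used, and columns left out numbered 0. In each library, 100% of the FPKM values above 0, multiplied by gene length, fell on whole multiples of the value of 1 read (tolerance 0.01), which gave back the reads.

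Genes at 1 FPKM or more in at least 2 of 8 libraries (11818) were tested with limma 3.58.1 in R 4.3.3 (trend) on log2(FPKM + 1). One fit held the 4 group means, with 4 residual and 3.34 prior degrees of freedom, and Benjamini-Hochberg adjustment ran over all genes tested (threshold 0.05). The script was tested on simulated data. A positive difference means higher in the group named first, and leave-one-out fits that left 1 clone in a group assume that it varies like the others. The 9 genes and the gene lists were chosen with earlier results of these data known. Beyond the 9 genes, the text gives at most 5 genes per direction and comparison past the threshold from the wider lists, the targeted genes, lineage markers and, for each of the 9 genes tested, the 3 genes most like it by Pearson's r. Some genes that this rule covers are not reported here. Clone numbers were not taken to pair libraries, since dKO clones were made separately and the clone deviations of groups correlated between -0.254 and 0.152. The alternatives were a pseudocount of 0.1, no filter, scaling by median ratio, voom on recovered reads, only the groups compared, a replicate block and leaving out each library. Figures were drawn with matplotlib 3.10.9.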

Additional observations from a re-analysis of the deposited data

Results flagged for a closer look

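Each result here was picked out because the dKO effect differed between the Jak2WT and Jak2V617F backgrounds by the interaction term of the same fit (limma adjusted p under 0.05). Values are the dKO difference in Jak2V617F minus that in Jak2WT, in log2(FPKM + 1). Of the genes with a larger value in Jak2V617F, Thbs1 came to 2.98, but it was listed at 0 in both Jak2V617F GLUT1/3 WT clones, so a fall there could not be measured, and it passed the filter through the Jak2WT GLUT1/3 WT clones alone. Ptgs1, the platelet cyclooxygenase, came to 1.46 and fell with dKO in Jak2WT and rose in Jak2V617F. Tuba4a came to 1.41, with 54.8 and 64.3 FPKM against 68.7 and 74.2 FPKM in Jak2WT and 22.4 and 16.9 FPKM against 66.9 and 61.6 FPKM in Jak2V617F. Rgs10 came to 1.33 and had 2 reads or fewer in every Jak2WT library, so that it passed the filter through the Jak2V617F clones alone. No weight is put on the calls of Thbs1 and Rgs10.

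Of the genes with a smaller value in Jak2V617F, F2rl2 came to -1.97 and F2r to -1.72, and both rose with dKO in Jak2WT and fell in Jak2V617F. Itgb1 came to -1.09, and was higher with dKO in Jak2WT and lower in Jak2V617F in both clones. The factor genes Cbfa2t3 and Srf came to -0.88 and -0.83. Gp9 came to -0.73, and since it was chosen with these values known, no weight is put on its call.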

How the results depend on the processing

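With 2 clones a group, the counts moved with single libraries. For the 9 genes, calls of dKO against GLUT1/3 WT in Jak2V617F were 1 with no filter, 1 with voom and 1 with only the groups compared, against 3. The gene called was Ppbp with no filter and with only the groups compared, and Gp1ba with voom. With a pseudocount of 0.1 Pf4 and Ppbp were called and Gp1ba was not. Jak2V617F against Jak2WT among dKO gave 3 with no filter, against 6. The interaction gave 0 with no filter, 0 with voom and 0 with the replicate block, against 1. For the wider list, dKO in Jak2WT gave 6 higher with no filter and 13 lower with voom, and dKO in Jak2V617F gave 14 higher and 8 lower with only the groups compared. Jak2V617F against Jak2WT gave 18 lower with voom among GLUT1/3 WT clones and 5 lower with no filter among dKO clones. The interaction gave 3 higher and 4 lower with no filter, 13 higher with voom and 5 lower with the replicate block. No filter more than doubled the genes tested, to 25788. The cause of the other shifts was not tested.

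Leaving out one library gave, for the 9 genes, 0 to 4 calls for dKO in Jak2WT, 1 to 4 for dKO in Jak2V617F, 4 to 5 and 3 to 7 for Jak2V617F against Jak2WT among GLUT1/3 WT and dKO clones, and 0 to 2 for the interaction. For the wider list the ranges of genes higher were 0 to 16, 16 to 28, 26 to 46, 20 to 38 and 1 to 9 in that order, and of genes lower 1 to 7, 7 to 22, 4 to 13, 2 to 10 and 0 to 10.

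Differences near 0 changed sign for dKO in Jak2V617F. Over the leave-one-out fits they ranged from -0.019 to 0.084 for Itga2b, -0.56 to 0.48 for Itgb3, -0.035 to 0.12 for Gp9 and -0.26 to 0.25 for Nfe2, with the ends set by single Jak2V617F clones. Itgb3 was called lower without Jak2V617F dKO clone 1 and higher without Jak2V617F dKO clone 3. Nfe2's interaction ranged from -0.14 to 0.37. With voom Itgb3 went to 0.065 and Nfe2 to 0.095, and with median ratio scaling Nfe2 went to 0.024. Of all other values under the alternatives, 1029 kept direction and call, 138 lost the call and 12 gained it.

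With voom the median of all genes was -0.10 rather than 0.0076 for Jak2V617F against Jak2WT among GLUT1/3 WT clones and 0.11 rather than -0.039 for the interaction, and the share of calls that were higher went from 50.7% to 34.4% and from 44.4% to 69.9%. That share also went from 55.7% to 38.9% for dKO in Jak2WT and from 45.7% to 59.3% for dKO in Jak2V617F. With the replicate block the calls over all genes were 742 higher and 581 lower for dKO in Jak2WT, against 901 and 716. A crossed pairing of clone numbers, added after seeing a correlation of -0.254 between the GLUT1/3 WT groups of the backgrounds, gave 1736 higher and 1700 lower.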
